A study of Mus musculus with 4 samples.

Results

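Serotonin-related transcripts were followed across single intestinal endocrine-lineage cells through 10 genes: Tph1, Ddc, Gch1, Pts, Qdpr, Slc18a1, Slc18a2, Slc6a4, Maoa and Maob. The genes were chosen by name for their place in the synthesis, storage, uptake and breakdown of serotonin, and all 10 were found by symbol among the 29161 genes of the count table. Each was measured as CPM (counts per 1000000 counts of a cell, or of the summed cells of a class), by its correlation with Tph1 across the cells of a plate, and by its level in cells with a Tph1 CPM of 200 or more, called Tph1-high here, against all other cells. The Tph1 threshold used no other gene.

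The study sorted living eYFP-positive cells from enteroids, which are epithelial mini-guts grown from adult intestine, of female CD1 mice carrying the Neurog3eYFP/+ reporter allele, to ask how endocrine subtypes arise. All cells used here carried the reporter allele and the cultures shared a medium with R-spondin-1, EGF and Noggin, so every comparison is between cells of the same genotype and medium. Plates 1, 2 and 3 held duodenum replicates 1 (mouse age 39 weeks), 2 and 3 (both 12 weeks) with 72, 83 and 72 cells, and plate 4 held jejunum replicate 1 (12 weeks) with 63 cells, 290 cells in all. Nothing in the labels says that the plates came from separate animals, so p-values measure the spread between plates, and tissue, plate and animal cannot be told apart for the single jejunum plate, nor age and plate for the single plate of 39 weeks.

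Serotonin is made from tryptophan. Tryptophan hydroxylase, encoded by Tph1 outside the brain, adds the hydroxyl group in the rate-limiting step and needs the cofactor tetrahydrobiopterin, after which aromatic amino acid decarboxylase, encoded by Ddc, forms serotonin. Gch1 encodes the first enzyme of cofactor synthesis, Pts a later one, and Qdpr the reductase that returns the used cofactor. The vesicular monoamine transporters encoded by Slc18a1 and Slc18a2 load serotonin into secretory granules with the help of a proton pump, the plasma membrane transporter encoded by Slc6a4 takes it up again, and the mitochondrial monoamine oxidases encoded by Maoa and Maob break it down. In the gut most serotonin is made by enterochromaffin cells, a hormone-producing cell type of the epithelium.

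All 10 genes are protein-coding in the GENCODE M21 annotation of GRCm38. Tph1 lies on chromosome 7 (46644641 to 46672537, minus strand), Ddc on chromosome 11 (11814101 to 11898144, minus), Gch1 on chromosome 14 (47153895 to 47189413, minus), Pts on chromosome 9 (50521617 to 50528724, minus) and Qdpr on chromosome 5 (45434021 to 45450236, minus). Slc18a1 lies on chromosome 8 (69037711 to 69089235, minus), Slc18a2 on chromosome 19 (59260896 to 59296012, plus) and Slc6a4 on chromosome 11 (76998603 to 77032340, plus). Maoa (16619698 to 16687818, plus) and Maob (16709282 to 16817366, minus) are neighbours on chromosome X, 21463 bp apart. The annotated span of Slc18a1 overlaps that of Atp6v1b2, a proton pump gene on the opposite strand, by 590 bp. Ddc and Slc18a1 also overlap antisense genes, which held 355 counts against 219309 of Ddc and 534 against 82469 of Slc18a1 over all cells, and whether strand was used in counting is not given in the sources used here.

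Promoter sequences were found in RefSeq's table (GRCm38.p6) for 8 of the 10 genes, at 10 start sites. The 250 bases before the start are printed for Tph1, which defines the cells, and for Ddc and Gch1, the genes that passed the test below. None of the printed bases lies in a GENCODE exon. They are given 5′ to 3′ on the gene's strand, and capitals mark the CCAAT box (CCAAT) and the half-site of the cyclic AMP response element (TGACG), each on either strand.
Tph1, start site 1, chr7:46667378-46667627, minus strand: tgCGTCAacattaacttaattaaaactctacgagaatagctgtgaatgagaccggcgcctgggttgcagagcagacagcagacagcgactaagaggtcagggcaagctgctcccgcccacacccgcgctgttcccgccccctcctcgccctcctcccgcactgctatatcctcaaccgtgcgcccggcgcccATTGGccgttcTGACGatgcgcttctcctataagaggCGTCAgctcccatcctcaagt
Ddc, start site 1, chr11:11890409-11890658, minus strand: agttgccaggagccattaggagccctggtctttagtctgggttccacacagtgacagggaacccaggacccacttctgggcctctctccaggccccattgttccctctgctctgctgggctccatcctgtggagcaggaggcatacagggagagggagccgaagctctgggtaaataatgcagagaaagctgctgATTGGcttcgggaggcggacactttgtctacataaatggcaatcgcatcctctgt
Gch1, start site 1, chr14:47189414-47189663, minus strand: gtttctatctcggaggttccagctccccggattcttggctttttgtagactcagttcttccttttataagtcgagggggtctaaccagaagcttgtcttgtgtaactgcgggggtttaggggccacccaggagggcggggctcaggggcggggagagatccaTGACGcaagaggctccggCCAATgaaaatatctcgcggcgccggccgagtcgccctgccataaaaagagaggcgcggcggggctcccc
The first start sites of Tph1, Ddc and Gch1 each have 1 CCAAT match, between 51 and 70 bases before the start, and the RefSeq promoter of Qdpr has 2. A CCAAT match is present in 33.8% of all 32851 promoters of the same length. TGACG has 3 matches before the first start site of Tph1, 1 before that of Gch1 and 0 before that of Ddc, and occurs in 17.8% of all promoters. It also has 1 match each before the second start site of Tph1, before Slc6a4 and before Maoa, and none before Pts, Qdpr and Slc18a2. The second start sites of Tph1 and Ddc, further upstream, have no CCAAT match. The other motifs, on both strands and with overlaps counted, were TAATTA, which many homeodomain proteins bind and which has a match in the Tph1 sequence and in 4.84% of all promoters, and GTTGCC, a half-site of RFX factors with a match in the Ddc sequence and in 10.4%. The E-box CANNTG (66.2% of all promoters) has no match in the 3 printed sequences, the NKX2 core CACTT (40.7%) has 2 in that of Ddc and the ETS core GGAAG (64.1%) has 1 in that of Gch1. Such matches describe letters and not binding.

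Tph1-high cells numbered 21, 25, 20 and 31 in plates 1 to 4. Their share was 29.2% in plate 1 (95% exact binomial bounds 19.0% and 41.1%), 30.1% in plate 2 (20.5% and 41.2%), 27.8% in plate 3 (17.9% and 39.6%) and 49.2% in plate 4 (36.4% and 62.1%). Few cells lay near the threshold: the values just below 200 CPM were 184.9 (plate 3) and 110.8 and 97.3 (plate 2), and those just above were 223.4 (plate 2), 257.9 (plate 3) and 282.0 (plate 2). The 193 other cells were divided into 53 peptide-hormone-high cells, with a summed CPM of Gip, Gcg, Cck, Sst, Nts, Pyy and Ghrl of 1000 or more, and 140 cells of neither kind. Plate 1 held only 2 peptide-hormone-high cells. Gip had 0 counts in all cells of plate 1, against 101081, 135520 and 702762 counts in the other cells of plates 2 to 4. Gip could thus place no cell of plate 1 in this class, and why it was at 0 there was not tested. As a class that should lack these genes, 35 of the other cells were called goblet-marker-high, with at least 4 of 7 goblet (mucus cell) markers at 100 CPM or more. They are not a separate class: 2 of them, both in plate 4, were also peptide-hormone-high, and the other 33 are among the cells of neither kind.

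Median counts per Tph1-high cell were 382036, 474939, 466818 and 810355 in plates 1 to 4, against 301666, 413166, 417582 and 632586 in other cells, so Tph1-high cells were deeper in every plate. Summed levels are relative to the class's total, so more transcripts of a gene and fewer of all others cannot be told apart. The summed CPM of 9 enterochromaffin markers was 74382 to 114409 in Tph1-high and 4293 to 13135 in other cells. These 9 include Tph1, which defines the class, and Slc18a1, so the sum is no separate support. Most of it was Chgb, a granule protein gene of endocrine cells. Chgb stood at 75930, 93525, 59793 and 69271 CPM in the Tph1-high cells of plates 1 to 4. In other cells it was at 7023, 10453, 3223 and 7474 CPM. The summed CPM of 8 goblet markers was 519 to 1129 in Tph1-high against 13789 to 22549 in other cells. Mast cells also make serotonin, and of 7 mast cell markers 3 were in the table; Mcpt1 and Fcer1a had 0 counts in Tph1-high cells, and Kit, which epithelial cells also express, stood at 9.82 to 23.8 CPM. Platelet markers (3 genes) summed to at most 6.98 CPM. The mesenchymal list (4 genes) was at 743 to 2659 CPM in Tph1-high and 21.6 to 170 in other cells, with Dcn at 0, and nearly all of it was Vim, at 722, 1749, 2659 and 2365 CPM in the Tph1-high cells of plates 1 to 4. The share of these lists in the results below was not tested. The 290 cells used 92 well positions, and 88 of these recur in 2 or more plates.

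Ddc and Gch1 were higher in Tph1-high than in other cells, by 3.14-fold and 3.25-fold, and were the 2 of 9 tested genes that passed the threshold. All 9 had passed the filter on low counts. Slc18a1 and Qdpr lay above the other cells in each of the 4 plates without passing. Pts, Slc6a4, Maoa, Maob and Slc18a2 showed no difference past the threshold, and in most plates their counts came from a few cells. The test was edgeR's quasi-likelihood test on counts summed per plate and class, with a term for the plate and Benjamini-Hochberg adjustment over 15688 genes at a threshold of 0.05. It called 0.861% of all genes, 0.268% as higher and 0.593% as lower, and 14.8% had an unadjusted p under 0.05. DESeq2, an alternative, called 12% and limma on mean log2(CPM + 1) 6.88%. The median log2 fold change was 1.65 over the 9 genes and -0.21 over all genes tested (-0.14 with DESeq2 and 0.04 with limma), so a value near -0.21 is the level of the typical gene. Summed CPM was higher in every plate for 4 of the 9 genes, and for 12.5% of all genes.

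**Figure D1:**
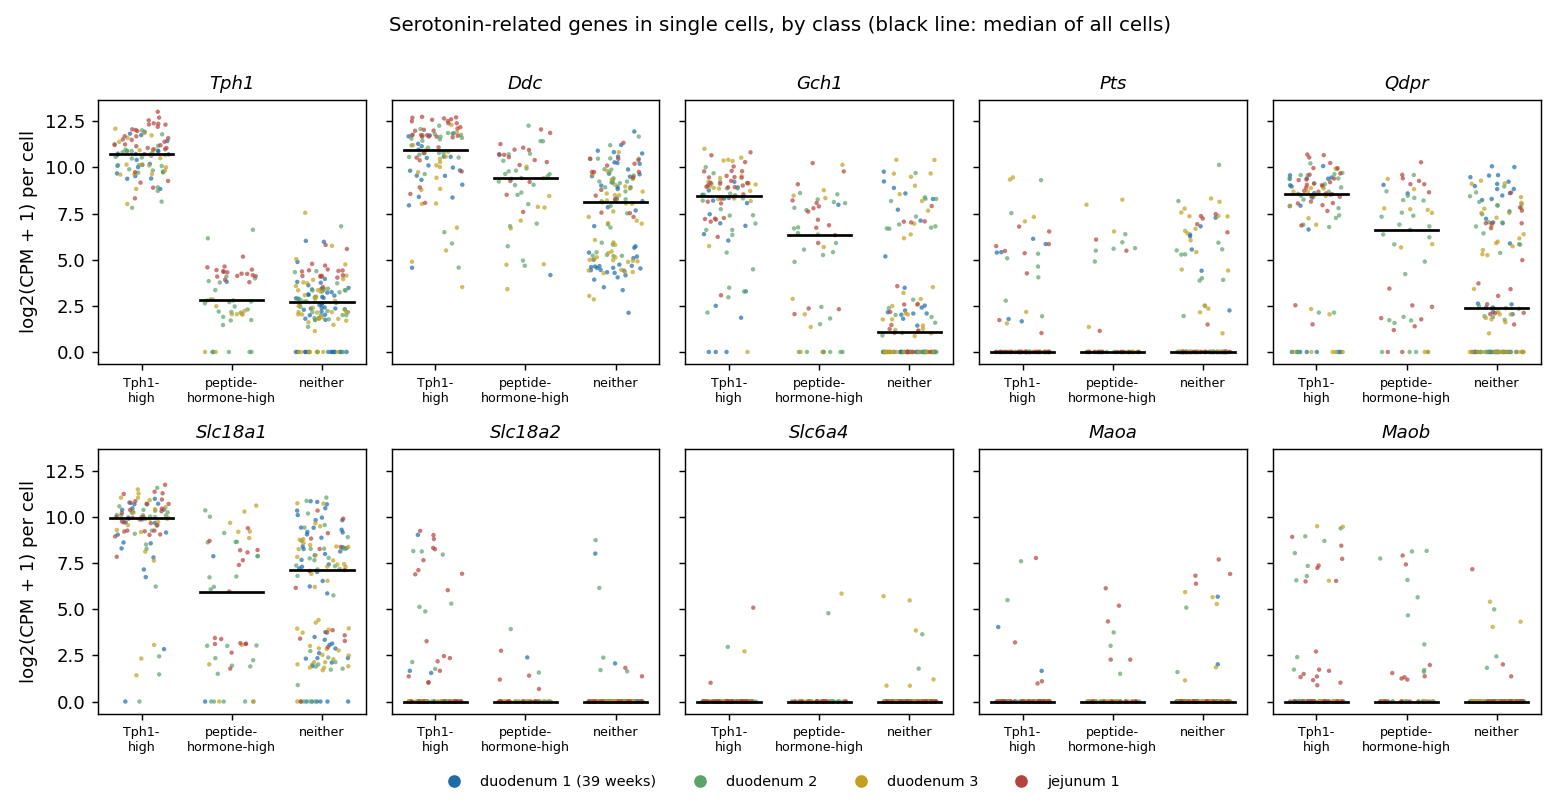
Level of each gene in each of the 290 cells, on a log2(CPM + 1) axis, by class and coloured by plate; black lines are medians over all cells of a class. Tph1-high cells lie together above the threshold in the Tph1 panel by definition, Ddc and Slc18a1 spread over a wide range in every class, and Slc6a4, Maoa and Maob are at 0 in most cells.

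Tph1, the class marker, is described without a test. Its summed CPM in Tph1-high cells was 1683, 1510, 1732 and 3169 in plates 1 to 4, and 7.27, 10.4, 10.5 and 19.8 in the other cells. Single Tph1-high cells ranged from 454 to 3890 CPM in plate 1 (median 1354), from 223 to 4117 in plate 2 (1482), from 258 to 4376 in plate 3 (1292) and from 319 to 8256 in plate 4 (2874). The jejunum plate thus stood above the duodenum plates, which lay close together. Tph1-high cells held 98.1% to 99.5% of each plate's Tph1 counts, whereas they held 24.1% to 54.4% of all counts. In plate 4 all 32 other cells had at least 1 Tph1 count, at 10.5 to 54.6 CPM. Its 5 goblet-marker-high cells were among them and stood at 16.5 to 34.8 CPM, so low Tph1 values in that plate are not read as expression.

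Ddc, the decarboxylase, had a summed CPM of 1402, 2665, 1389 and 3955 in the Tph1-high cells of plates 1 to 4. In other cells it was 478, 763, 260 and 1326. The lowest Tph1-high plate lay above the highest plate of other cells, a separation shown by 4.51% of all genes. The log2 fold change was 1.65 ± 0.18 (SE, 4 plates; edgeR adjusted p = 0.0307). Ddc was not restricted to Tph1-high cells. Every one of the 290 cells had at least 1 Ddc count, which is not read as expression, and the median CPM of other cells was 51.8, 601, 131 and 1144 in plates 1 to 4, against 1014, 2774, 945 and 3446 in Tph1-high cells. Tph1-high cells held 59.4%, 62.0%, 63.0% and 78.1% of the Ddc counts.

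Among the other cells of plates 2 and 3, Ddc fell from peptide-hormone-high cells to cells of neither kind to goblet-marker-high cells. Plate 4 did not show this full order. In plates 2, 3 and 4 peptide-hormone-high cells had a summed CPM of 993, 362 and 1746, above cells of neither kind with 593, 240 and 841. Goblet-marker-high cells had the lowest values in plates 2 and 3, with 395 and 145, and 916 in plate 4. The last value is near that of the cells of neither kind, and these neighbouring classes overlap between plates. In plate 1, where 14 goblet-marker-high cells stood at 241 CPM, 1 cell held 59.5% of their Ddc counts.

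Gch1, which starts the synthesis of tetrahydrobiopterin, had a summed CPM of 214, 275, 737 and 575 in the Tph1-high cells of plates 1 to 4. In other cells it was 61.3, 83.0, 146 and 181. The plates of the 2 classes again did not overlap. The log2 fold change was 1.70 ± 0.19 (SE, 4 plates; edgeR adjusted p = 0.0307). The typical other cell had little Gch1: the median CPM was 0, 4.31, 2.75 and 69.2 in plates 1 to 4, against 175, 212, 519 and 518 in Tph1-high cells. Goblet-marker-high cells had a summed CPM of 10.4, 14.1, 1.25 and 37.3, the lowest of the classes in plates 1 to 3. In plates 1 and 2, 1 cell held 94.3% and 96.0% of these counts, and in plate 4 the 2 cells that were also peptide-hormone-high stood at 142 and 115 CPM and the other 3 at 1.23 to 4.94. In plate 4 cells of neither kind were at 35.2. Peptide-hormone-high cells of plates 2, 3 and 4 stood between, at 101, 280 and 308.

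The calls of Ddc and Gch1 rest on all 4 plates and on the plate term. Without the plate term, neither passed (edgeR adjusted p = 0.240 and 0.138). Without duodenum replicate 1, 2 or 3 or jejunum replicate 1, the edgeR adjusted p was 0.128, 0.197, 0.178 and 0.0585 for Ddc and 0.140, 0.178, 0.178 and 0.0638 for Gch1, with log2 fold changes of 1.51 to 1.78 and 1.60 to 1.75. When other cells were limited to those at or above their plate's median of Chgb, a granule protein gene of endocrine cells, only plates 1 to 3 had 5 or more such cells (15, 17 and 16), so that plate 4 was left out as well, and the log2 fold change was 1.60 for Ddc (adjusted p = 0.796) and 0.68 for Gch1 (adjusted p = 0.862).

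Of the other cofactor genes, Qdpr, the reductase that recycles the cofactor, had a summed CPM of 365, 440, 321 and 593 in Tph1-high cells and 179, 122, 128 and 192 in other cells. Its plates did not overlap between classes, as for Gch1, and the log2 fold change of 1.27 ± 0.23 (SE, 4 plates) did not pass (edgeR adjusted p = 0.0855; 3.43e-05 with DESeq2). Pts, whose product acts after that of Gch1, stood at 11.2, 36.4, 78.2 and 14.1 CPM in Tph1-high and 8.78, 32.6, 59.7 and 25.6 CPM in other cells. These levels overlapped, and the log2 fold change was -0.17 ± 0.43 (SE, 4 plates; edgeR adjusted p = 0.900). Pts reached 5 counts in only 4 of 21, 7 of 25, 4 of 20 and 7 of 31 Tph1-high cells, and a single cell held 61.6% of the Pts counts of the Tph1-high cells of plate 2.

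Slc18a1, the vesicular transporter of endocrine cells, had a summed CPM of 840, 949, 1163 and 1206 in the Tph1-high cells of plates 1 to 4. In other cells it was 362, 256, 229 and 197. The log2 ratio was 1.22, 1.89, 2.35 and 2.62, and the plates did not overlap between classes. The log2 fold change was 1.84 ± 0.28 (SE, 4 plates), and the edgeR adjusted p of 0.0562 missed the threshold. It passed with DESeq2 (1.03e-08), without the plate block (0.0213), without the filter on low counts (0.0240), with every cell thinned to 100000 counts (0.0146) and with limma on mean log2(CPM + 1) values (4.81e-05). These were 5 of 12 alternatives. With 1 plate left out it did not pass, at an edgeR adjusted p of 0.114 to 0.249 and a log2 fold change of 1.59 to 2.13. Over all alternatives, the adjusted p ran up to 0.796.

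Slc18a1 was also common outside Tph1-high cells. At 100 CPM or more (a limit chosen once the values were known), it was present in 88 of 97 Tph1-high cells and in 98 of 193 other cells, 16 of the 35 goblet-marker-high cells among them. In these 35 cells its summed CPM was 194, 133, 91.5 and 105 in plates 1 to 4. In the other cells of plate 2, those with Slc18a1 at 100 CPM or more had a median of 877 CPM of Fev, an endocrine transcription factor gene, against 32.8 CPM in those below. In plates 1, 3 and 4 these medians were 30.1 against 18.2, 24.7 against 24.9, and 283 against 159 CPM. Tph1 medians over the 4 plates were 3.19 to 16.9 CPM with and 3.34 to 19.2 CPM without Slc18a1. The overlapping gene Atp6v1b2 also stood higher in the Tph1-high cells of each plate, at 1466, 1206, 1141 and 1308 CPM in Tph1-high and 672, 427, 457 and 640 CPM in other cells, and its Spearman correlation with Slc18a1 across cells was 0.23, 0.37, 0.47 and 0.50. Whether reads of one gene were counted for the other was not tested.

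Slc18a2, the transporter better known from neurons, was found in few cells. Its summed CPM in Tph1-high cells was 25.3, 55.5 and 86.9 in plates 1, 2 and 4, against 7.02, 10.2 and 0.377 in other cells. In plate 3 it was listed at 0 in all 72 cells, which allows a level of up to 0.0796 CPM if the gene was counted as in the other plates. Plate 3 had 6 genes at 0 that had at least 300 counts in each other plate, Slc18a2 among them, and plates 1, 2 and 4 had 33, 2 and 4 such genes. The log2 fold change was 3.26 ± 1.51 (SE, 4 plates in the fit, 3 of them with counts; edgeR adjusted p = 0.414; 0.0394 with DESeq2). With 1 plate left out it ran from 1.87 without jejunum replicate 1 to 4.71 without duodenum replicate 1.

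In the Tph1-high cells of plate 1, 1 cell held 99.0% of the Slc18a2 counts, whereas in plate 4 the top cell held 16.0%. At 5 or more counts, Slc18a2 was present in 1 of 21, 6 of 25, 0 of 20 and 11 of 31 Tph1-high cells, and in 4 of 193 other cells. Of the 18 Tph1-high cells with 5 or more Slc18a2 counts, 17 had Slc18a1 at 100 CPM or more, against 88 of all 97 Tph1-high cells. Slc18a2 was at 100 CPM or more in only 13 Tph1-high and 2 other cells, and all of these had Slc18a1 at that level too. Slc18a1 was at that level in 88 of 97 Tph1-high and 98 of 193 other cells, so a link between the 2 genes is not read from this.

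**Figure D2:**
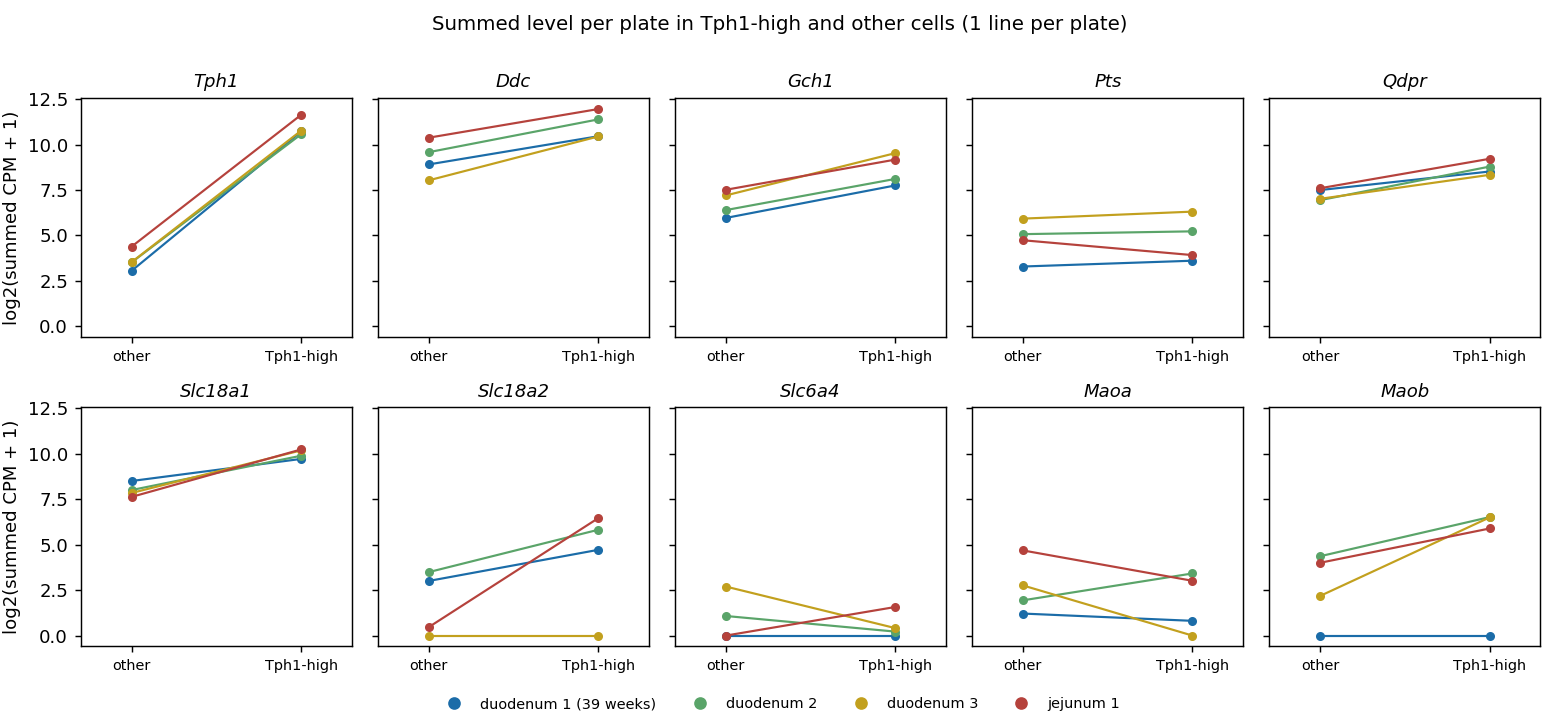
Summed CPM of each gene per plate, on a log2(summed CPM + 1) axis, in other cells and in Tph1-high cells; each line joins the 2 classes of 1 plate. For Ddc, Gch1, Qdpr and Slc18a1 all 4 lines slope upward from other to Tph1-high cells, whereas those of Pts, Slc6a4 and Maoa go both ways.

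Slc6a4, the reuptake transporter, was near the limit of detection. It had 0 counts in plate 1, and 31, 160 and 50 counts in all cells of plates 2, 3 and 4. In Tph1-high cells its summed CPM was 0, 0.164, 0.330 and 1.98, against 0, 1.11, 5.49 and 0 in other cells. In plate 4, 1 Tph1-high cell held 49 of the 50 counts, and in plate 3, 157 of the 160 counts were in other cells. Slc6a4 reached 5 counts in 1 of 97 Tph1-high cells. The fitted difference was not past the threshold (edgeR adjusted p = 0.864).

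Of the monoamine oxidase genes, Maob had 0 counts in the 72 cells of plate 1, and 90.6, 89.5 and 58.3 CPM in the Tph1-high cells of plates 2, 3 and 4, against 19.6, 3.53 and 15.0 CPM in other cells. Tph1-high cells held 68.3%, 89.0% and 82.2% of the Maob counts of these plates. Maob was 1 of the 33 genes at 0 in plate 1 that had at least 300 counts in each other plate. The log2 fold change was 2.69 ± 0.76 (SE, 4 plates; edgeR adjusted p = 0.247; 0.00421 with DESeq2). Only 7 of 25, 3 of 20 and 8 of 31 Tph1-high cells reached 5 counts, and 1 cell held 56.1% of the counts of this class in plate 3. In goblet-marker-high cells Maob had 1 count in all, in plate 4.

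Maoa was at 0.755, 9.69, 0 and 7.08 CPM in Tph1-high cells and at 1.32, 2.84, 5.77 and 24.7 CPM in other cells of plates 1 to 4. Tph1-high cells held 22.2%, 61.5%, 0% and 25.5% of the Maoa counts. Other cells lay above Tph1-high cells in plates 1, 3 and 4, and the log2 fold change was -1.65 ± 1.94 (SE, 4 plates; edgeR adjusted p = 0.751). It ran from -2.87 without duodenum replicate 2 to -0.47 without duodenum replicate 3. In plate 4, 7 of 32 other cells and 1 of 31 Tph1-high cells had 5 or more Maoa counts. In plate 2, 1 cell held 89.0% of the counts of the Tph1-high cells. The Spearman correlation between the oxidase genes was 0.05, 0.11 and -0.02 across the cells of plates 2, 3 and 4.

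**Figure D3:**
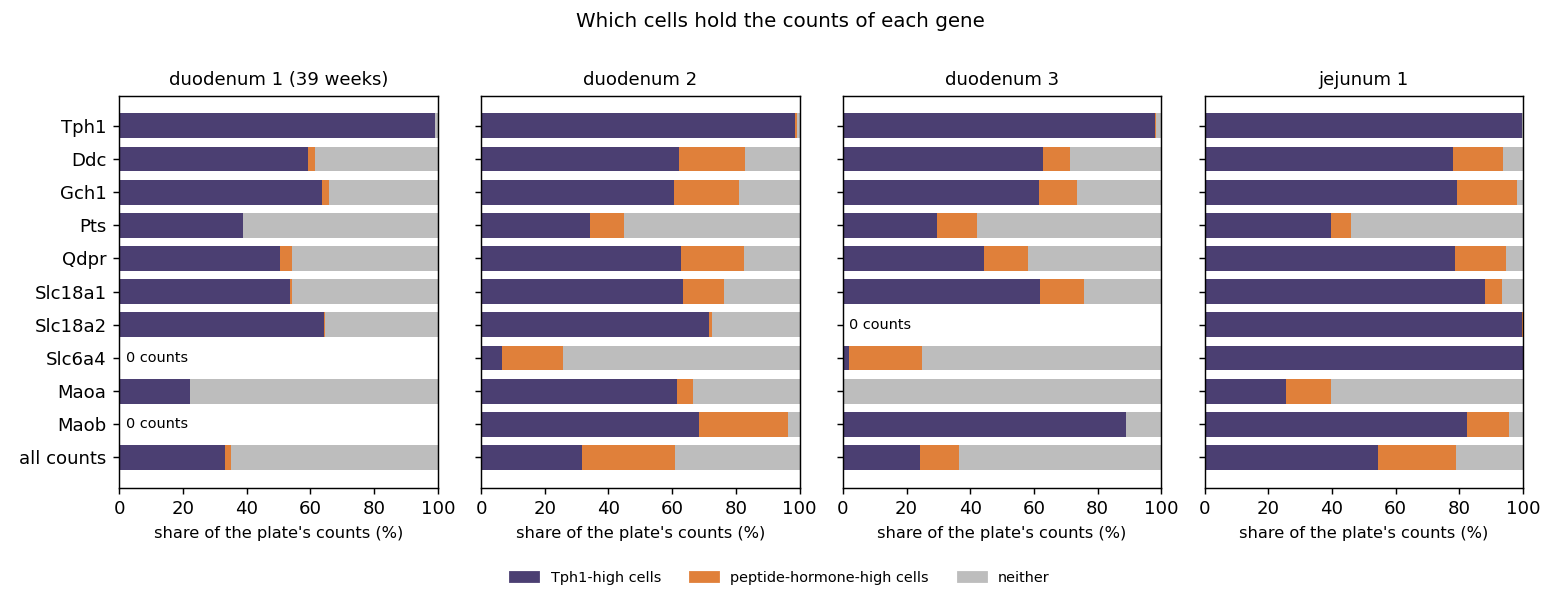
Share of each plate's counts of a gene (x axis, percent) held by Tph1-high, peptide-hormone-high and neither cells, with the share of all counts in the bottom bar. Tph1 is almost wholly in Tph1-high cells, Ddc, Gch1, Qdpr and Slc18a1 exceed the bottom bar in every plate, and Pts lies slightly above it in plates 1 to 3 and below it in plate 4.

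Peptide-hormone-high cells were then set against Tph1-high cells, to compare hormone-producing cells with each other, in plates 2, 3 and 4 with 25, 10 and 16 such cells. This comparison shares its Tph1-high cells with the one above. None of the 9 genes passed the edgeR test (adjusted p from 0.425 upward), which called 0.0602% of 13297 genes (6.44% with DESeq2), and 5 of the 9 had an unadjusted p under 0.05 against 8.13% of all genes. Summed CPM lay higher in the Tph1-high cells of all 3 plates for 6 of the 9 genes, namely Ddc, Gch1, Pts, Qdpr, Slc18a1 and Maob, and for 16.8% of all genes.

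Slc18a1 stood at 949, 1163 and 1206 CPM in the Tph1-high and at 210, 517 and 167 CPM in the peptide-hormone-high cells of plates 2 to 4, a log2 fold change of 2.04 ± 0.38 (SE, 3 plates; edgeR adjusted p = 0.486; 9.03e-06 with DESeq2). Slc18a2 stood at 55.5, 0 and 86.9 against 0.813, 0 and 0.528 CPM, the latter from 9 and 6 counts in plates 2 and 4. The log2 fold change of Ddc was 1.49 ± 0.25 (adjusted p = 0.425; 8.57e-05 with DESeq2). That of Gch1 was 1.22 ± 0.27 (adjusted p = 0.602; 0.0188 with DESeq2) and that of Qdpr 1.10 ± 0.28 (adjusted p = 0.602). Maob was at 40.6, 0 and 20.9 CPM in peptide-hormone-high cells, 6 of 25, 0 of 10 and 2 of 16 of which reached 5 counts. Pts stood at 12.3, 67.4 and 5.10 CPM there.

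The genes of synthesis and storage were next counted together within single cells. Ddc, Gch1, Qdpr and at least 1 vesicular transporter were all at 100 CPM or more in 8 of 21 Tph1-high cells of plate 1 (38.1%, exact bounds 18.1% and 61.6%), 10 of 25 in plate 2 (40.0%, 21.1% and 61.3%), 10 of 20 in plate 3 (50.0%, 27.2% and 72.8%) and 27 of 31 in plate 4 (87.1%, 70.2% and 96.4%). In other cells the full set was present in 3 of 51, 8 of 58, 3 of 52 and 3 of 32. The 4 plates of the 2 classes did not overlap in this share. Ddc, Gch1, Qdpr and a vesicular transporter were each at this level in 61.9% or more of the Tph1-high cells of every plate. Many such cells would thus hold the full set without any link between the genes. Whether the share exceeds that level was not tested, and no share was computed for other sets of genes. None of the 35 goblet-marker-high cells had the full set, which allows a share of up to 8.57%. Their median counts per cell were 360518, 414985, 795294 and 632267, below those of Tph1-high cells in plates 1, 2 and 4.

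Of the 97 Tph1-high cells, Ddc was at this level in 90, Slc18a1 in 88, Gch1 in 76 and Qdpr in 75. Among the 53 peptide-hormone-high cells the numbers were 46, 24, 25 and 26, and 5 had the full set. Maob reached 100 CPM in 13 Tph1-high and 6 other cells, Pts in 7 and 18, Maoa in 2 and 3, and Slc6a4 in 0 cells.

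**Figure D4:**
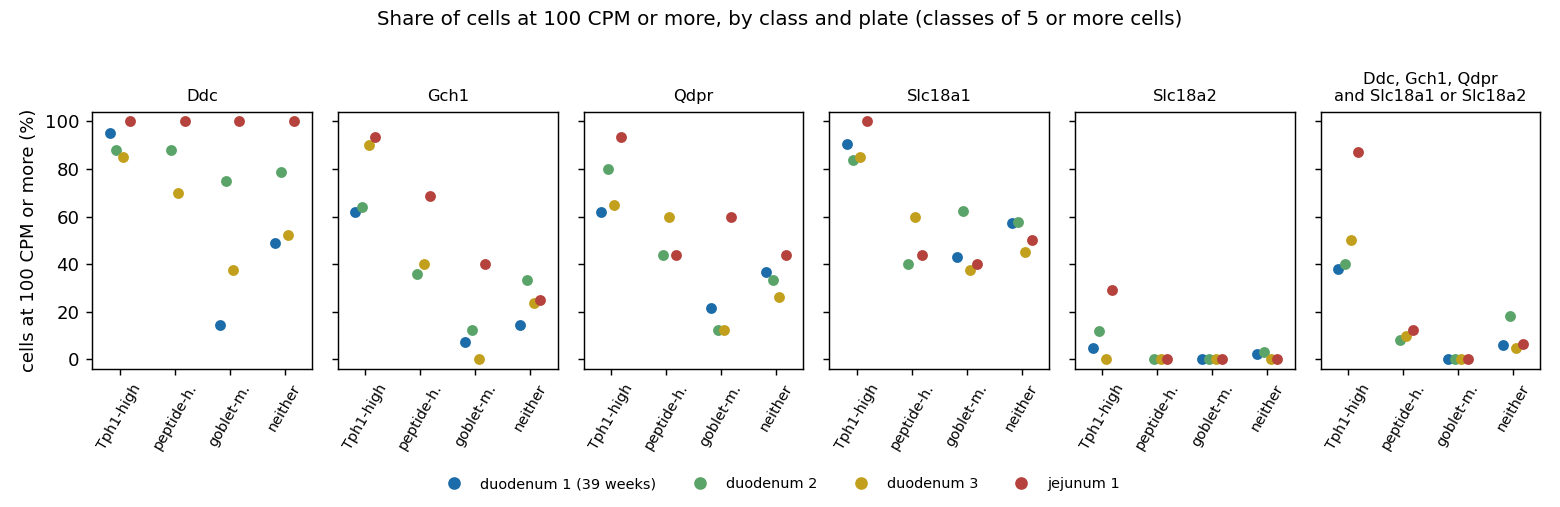
Percent of cells at 100 CPM or more for Ddc, Gch1, Qdpr, Slc18a1, Slc18a2 and for the full set, by class and plate; each point is 1 class in 1 plate, and classes of fewer than 5 cells are left out. The full set is at 38.1% to 87.1% of Tph1-high cells and at 0 in goblet-marker-high cells, while Ddc, Slc18a1 and Qdpr are each present in some cells of every class.

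Correlation with Tph1 across the cells of a plate divided the genes in the same way. Tph1 also defines the classes, so this largely repeats the contrast above on the same cells and is no separate support. It also ranks low Tph1 values, which in plate 4 are not read as expression. Spearman's correlation coefficient is given as a description, since the cells of a plate share a library and differ in depth. For Ddc it was 0.51, 0.45, 0.38 and 0.61 in plates 1 to 4. For Slc18a1 it was 0.41, 0.46, 0.35 and 0.69, and for Gch1 0.41, 0.30, 0.43 and 0.48. Qdpr had 0.22, 0.20, 0.17 and 0.49, so that plate 4 gave the highest value for each of these genes. Slc18a2 had 0.06, 0.26 and 0.35 in plates 1, 2 and 4, and Maob 0.08, 0.16 and 0.22 in plates 2 to 4. Pts, Slc6a4 and Maoa had both signs, between -0.26 and 0.13. Tph1 CPM itself had a coefficient of 0.01 to 0.30 with the total count of a cell, and Ddc one of 0.01 to 0.33.

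Among 5713 genes seen in at least 20% of the cells of every plate, ordered by their lowest coefficient over the 4 plates, Ddc ranked 11, Slc18a1 17, Gch1 37 and Qdpr 177. The other 5 genes were seen in too few cells to be ranked. The coefficient with Tph1 was above 0 in all 4 plates for Ddc, Slc18a1, Gch1 and Qdpr, and for 21.2% of the ranked genes. Slc18a2 and Maob, which were not ranked, were above 0 in the 3 plates with counts. The 10 genes most like Tph1 by this measure were Chgb, Tac1, Vim, Rab3c, Scn3a, Gstt1, Gcc2, Lmx1a, Nr4a1 and Bok, with lowest values from 0.63 for Chgb to 0.39 for Bok. Tac1 encodes the precursor of substance P and Lmx1a a transcription factor of enterochromaffin cells. These 10 were chosen on the same cells, so their calls are a description: 8 were called higher in Tph1-high than in other cells, while Nr4a1 (adjusted p = 0.0607) and Bok (0.160) were not.

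Within Tph1-high cells alone, Ddc was the only 1 of the 9 genes whose coefficient with Tph1 stayed above 0 in all 4 plates. It was at 0.54, 0.35, 0.49 and 0.28 over 20 to 31 cells. The share of all genes above 0 in every plate was not computed for these cells, so this is a description. Gch1 had -0.30, -0.36, 0.05 and -0.02, Slc18a1 -0.24, 0.02, 0.45 and 0.07, and Qdpr 0.14, -0.10, 0.04 and -0.07. Each of these 3 genes thus had both signs. Between pairs of the genes across all cells, the coefficient was 0.38 to 0.52 for Gch1 with Slc18a1, 0.35 to 0.59 for Ddc with Gch1, 0.20 to 0.58 for Gch1 with Qdpr and 0.28 to 0.44 for Ddc with Slc18a1. Pts stood at -0.16 to 0.20 with Gch1, on which it follows in the pathway, and at -0.03 to 0.04 with Qdpr.

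**Figure D5:**
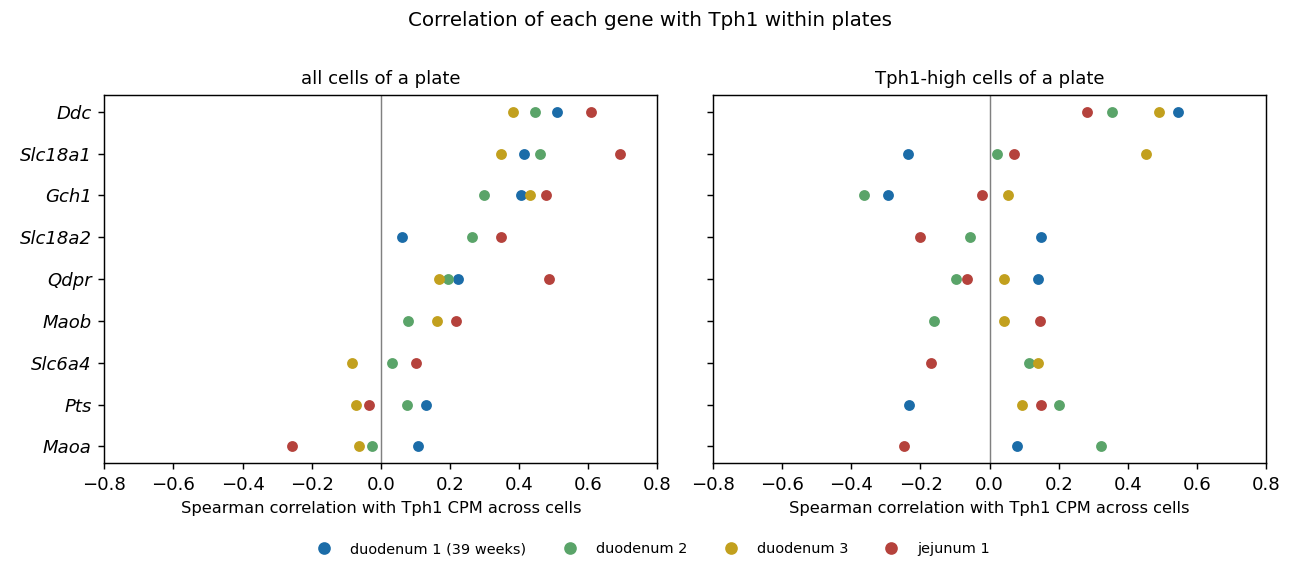
Spearman correlation of each gene with Tph1 CPM (x axis) across all cells of a plate (left) and across its Tph1-high cells only (right), 1 point per plate. On the left Ddc, Slc18a1 and Gch1 lie between 0.30 and 0.69 in every plate, and on the right Ddc alone is above 0 in all 4.

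The jejunum plate had the highest whole-plate level of Tph1, Ddc, Gch1, Qdpr, Slc18a1, Slc18a2 and Maoa. The share of all genes that were highest in this plate was not computed, so the list is a description. Tph1 over all cells of a plate was at 564, 488 and 426 CPM in duodenum replicates 1 to 3 and at 1733 CPM in jejunum replicate 1, in which Tph1-high cells were also the largest share. Its log2 fold change was 1.82 ± 0.45 (SE, 3 plates against 1; edgeR adjusted p = 0.934; 0.00304 with DESeq2). Ddc was at 785, 1368 and 532 CPM against 2756 CPM, a log2 fold change of 1.64 ± 0.59 (adjusted p = 0.934). None of the 10 genes passed the edgeR test. It called 0 of 19329 genes (0%), with 819 (4.24%) at an unadjusted p under 0.05, whereas 731 (3.78%) passed with DESeq2. The lone jejunum plate is assumed to vary like the duodenum plates.

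Within Tph1-high cells, the jejunum plate lay above each duodenum plate for Tph1, Ddc, Qdpr, Slc18a1, Slc18a2 and Slc6a4, while Gch1 was highest in duodenum replicate 3. Here too, no share of all genes was computed. The difference between Tph1-high and other cells did not differ between the tissues past the threshold for any of the genes (edgeR interaction test, added after the data had been seen; adjusted p = 1). The interaction estimate for Slc18a1 was 0.93 ± 0.50 and for Ddc -0.22 ± 0.36 (log2, SE). The largest were 5.82 ± 1.73 for Slc18a2 (unadjusted p = 0.0283) and 11.61 ± 4.10 for Slc6a4 (unadjusted p = 0.0472), 2 genes with 0 counts in whole plates or classes, so that the size of these estimates depends on the small count edgeR adds. Pts lay above other cells in the 3 duodenum plates and below in the jejunum plate, with an interaction of -1.03 ± 1.02. At 39 weeks, in plate 1, Gch1, Pts, Slc6a4, Maoa and Maob had their lowest whole-plate values, at 112, 9.58, 0, 1.13 and 0 CPM. The share of all genes that were lowest in plate 1 was not computed. Plate 1 was also the shallowest, with 23893272 counts against 37699098 to 46490618. It had 33 genes at 0 with at least 300 counts in each other plate, Maob among them, so this 0 is not read as an effect of age.

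Other genes of serotonin metabolism were read from lists of 80 genes, 70 of which were in the table and 48 passed the filter. None was called in either direction in the comparison of Tph1-high with other cells, and 11 of the 48 had an unadjusted p under 0.05, against 0.861% and 14.8% of all genes. Their median log2 fold change was 0.08, against -0.21 over all genes tested. The 8 further genes of the cofactor had a median of -0.10, with 1 above and 2 below other cells in every plate. Dnajc12, a chaperone partner of the hydroxylases, was the former (log2 fold change 1.11 ± 0.40, adjusted p = 0.311), and Cbr1 (-1.18 ± 0.33, adjusted p = 0.217) and Akr1b3 (-2.55 ± 1.14, adjusted p = 0.380), both carbonyl or aldose reductases, the latter.

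Of the proton pump that powers vesicular uptake, 18 of 20 subunit genes were tested, with a median of 0.40, and 9 lay above other cells in every plate, against 12.5% of all genes. The lowest adjusted p was that of Atp6v1b2, the neighbour of Slc18a1, at 0.0562 (log2 fold change 1.06 ± 0.16). The 8 tested genes that act after monoamine oxidase or conjugate serotonin had a median of -1.68. Aldh1b1 (-2.19 ± 0.56, adjusted p = 0.178) and Aldh2 (-1.58 ± 0.58, adjusted p = 0.312), mitochondrial aldehyde dehydrogenases, lay below other cells in every plate. The medians were -0.70 for 5 genes of tryptophan uptake and 1.08 for 5 other monoamine carriers. Of the other monoamine-making enzymes, only Th and Hdc, which makes histamine, were tested, at -1.34 ± 2.94 and -5.23 ± 2.24 (adjusted p = 0.883 and 0.380). Of the enzymes using tryptophan by other routes, Afmid and Wars were tested, at 3.28 ± 3.08 and -0.65 ± 0.25 (adjusted p = 0.676 and 0.321). None of the 14 serotonin receptor genes passed the filter, and 10 of them were in the table. Genes named from these lists in this and the preceding paragraph were picked after their values had been seen. Against peptide-hormone-high cells, 45 of the 80 were tested, none was called, and 4 had an unadjusted p under 0.05, against 0.0602% and 8.13% of all genes.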

How the data were processed

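The authors deposited raw counts per gene and well, whole numbers for 290 cells of 4 plates, and columns were assigned to plates by the experiment number in their names. Per the submitters' processing notes, which give no role or order, bcl2fastq 2.17.1.14, cutadapt 1.10, Bowtie2 2.2.8, STAR 2.5.3a, UMI-tools 0.4.4, HTSeq 0.6.1 and the mm10 build were used. Whether copies were collapsed by molecular index, whether strand was used and how the authors filtered cells is not known from the labels or headers, so intervals and zero limits cover counting error only. A count of 0 was given the limit of 3 counts. Depth was 23893272 to 46490618 counts per plate and 202711 to 2312044 per cell. Cells were not filtered again, and no doublet caller was run, since each well received 1 sorted cell.

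CPM was computed from these counts. Classes were summed per plate where each had 5 or more cells, and tested in R 4.3.3 with the quasi-likelihood test of edgeR 4.0.16 (TMM normalization, filterByExpr, plate as a block, Benjamini-Hochberg adjustment). The block was used because both classes come from the same plate. The SE beside an edgeR fold change is its absolute value divided by the square root of the test's F statistic. It is therefore approximate, most of all for genes with few counts. Jejunum and duodenum were compared on whole plates. With 4 plates a paired permutation test cannot go below p = 0.125, and 1 plate against 3 cannot go below 0.25. Alternatives were DESeq2 1.42.0, no filter, no block, Tph1 thresholds of 100 and 500 CPM, a hormone threshold of 5000 CPM, limma 3.58.1 on mean log2(CPM + 1), thinning to 100000 counts, other cells limited by Chgb, and leaving out each plate. The code was tested on simulated data. Correlations with Tph1 and between the genes were computed with pandas 2.3.3 and numpy 2.4.6, and exact binomial bounds with scipy 1.17.1.

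The 10 genes are named in every comparison, pathway genes if called, and the 10 genes most like Tph1. The members and lists were chosen with earlier results of these data known. Gene positions are from GENCODE M21, matched by Ensembl identifier, and promoters from RefSeq.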

Additional observations from a re-analysis of the deposited data

Results flagged for a closer look

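In 22 sets of 4 plate values of the 10 genes and their classes, 2 had 1 plate whose gap to the nearest other plate exceeded the 95% critical value for 4 samples (0.829 of the range), where chance gives about 1 in 20. Both concern plate 4, jejunum replicate 1. The summed CPM of Tph1 in Tph1-high cells was 3169 there, against 1510 to 1732 in the duodenum plates. That of Slc6a4 in Tph1-high cells was 1.98, against 0 to 0.330, and 1 cell held 49 of its 50 counts. With 1 jejunum plate, tissue, animal and plate cannot be told apart.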

How the results depend on the processing

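The count of genes called between Tph1-high and other cells, 135 (42 higher, 93 lower), was 1885 with DESeq2 (856 higher, 1029 lower), 206 without a filter, 71 at a Tph1 threshold of 100 CPM, 1080 with limma on mean log2(CPM + 1) (687 higher, 393 lower), 304 after thinning, 0 with other cells limited to the upper part by Chgb (779 at an unadjusted p under 0.05; 1 plate fewer), and 3 to 90 when 1 plate was left out (7, 7 and 3 without duodenum replicates 1, 2 and 3, and 90 without jejunum replicate 1). Against peptide-hormone-high cells, where plate 1 had too few cells, the count of 8 was 856 with DESeq2, 83 with limma, 32 after thinning and 0 without any 1 of the 3 plates (637 to 992 genes at an unadjusted p under 0.05). Between jejunum and duodenum the count of 0 was 731 with DESeq2, 9 without a filter and 0, 10 and 2 without duodenum replicates 1, 2 and 3. Of the 9 genes, 6 had a positive correlation with Tph1 in every plate with counts (4 plates for 4 genes, 3 plates for Slc18a2 and Maob), and 1 among Tph1-high cells only. For the last count no share of all genes was computed. The cause of these shifts was not tested.

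Against other cells, the log2 fold change of Pts ran from -0.26 to 0.0659 with 1 plate left out (positive without jejunum replicate 1) and turned to 0.41 with other cells limited by Chgb, where that of Maoa turned to 0.71. Slc6a4 ran from -3.45 to 1.29 with 1 plate left out (0.55 and 1.29 without duodenum replicate 2 or 3). Against peptide-hormone-high cells, Slc6a4 turned to 0.32 without duodenum replicate 2, and Maoa ran from -0.37 without duodenum replicate 2 to 1.48 without duodenum replicate 3 and turned to -0.22 with limma. Between tissues, Slc6a4 ran from -1.33 to 1.41 (positive without duodenum replicate 3). None of these was past the threshold in any fit named here.

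The classes come from the same plates, which the block pairs. Without the replicate block, 130 genes were called against other cells, and Ddc (1.60, adjusted p = 0.240) and Gch1 (1.75, adjusted p = 0.138) lost their calls while Slc18a1 (1.83, adjusted p = 0.0213) gained one. Duodenum and jejunum share 1 replicate number, so no paired analysis was possible between them. Gch1 also missed the threshold at a Tph1 threshold of 500 CPM (adjusted p = 0.0542). Qdpr passed with limma (0.00163) and after thinning (0.0494). Slc6a4, Maoa, Maob, Slc18a2 and Pts had 5 or more counts in few cells, and no limit of depth was tested for them.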

Other observations

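The full set of Ddc, Gch1, Qdpr and a vesicular transporter at 100 CPM or more was found in 17 of 193 cells below the Tph1 threshold, 5 of them peptide-hormone-high and 12 of neither kind. In plate 2 these were 8 of 58 other cells.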
